A study of Homo sapiens with 6 samples.

Results

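Tissue kallikreins and epithelial serpins of clade B were followed by RNA-Seq in MCF10A, an established line of non-tumorigenic mammary epithelial cells, grown with or without growth factors. The group was set as 9 named genes, the kallikreins KLK5, KLK6, KLK7, KLK8, KLK10 and KLK11 on chromosome 19 and the serpins SERPINB1, SERPINB5 and SERPINB13, and its members were found by matching gene symbols to the Ensembl identifiers of the count table. Of these 9 genes, 7 are described, 5 kallikreins and 2 serpins, out of 19198 genes in the table, and KLK11 and SERPINB13 are not analysed here. The 3 control samples were grown in medium with 5% horse serum, 10 µg/ml insulin, 20 ng/ml EGF, 100 ng/ml cholera toxin and 0.5 µg/ml hydrocortisone. The 3 growth factor-depleted samples kept the horse serum at 5% and received none of those additions, so the data cannot tell which of them a change followed. All samples came from the same cell line, and the study's methods give the longest time in depleted medium but not the time of each of these samples. The series' design text speaks of 2 replicates a sample, the labels list 3 a condition and were followed, and nothing in the labels says that replicates were separate cultures, so that p-values measure only the spread between these samples. The study compared the conditions to describe the epithelial-mesenchymal transition (EMT) that follows growth factor removal.

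Tissue kallikreins are secreted serine proteases made as inactive precursors, and their genes lie side by side in a single cluster. KLK5 and KLK7 are best known from the outer epidermis, where KLK5 activates other kallikreins and both cut the adhesion proteins that hold cornified cells together, until inhibitors of the Kazal type stop them. Clade B serpins are a branch of the serine protease inhibitor family that lacks a classical secretion signal, and most act inside cells. SERPINB1 inhibits neutrophil elastase and related proteases. SERPINB5, or maspin, is made by normal mammary epithelium and does not work as a classical protease inhibitor.

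The upstream sequences of KLK5, KLK6 and SERPINB5 are shown because these genes stand for the patterns described below, an abundant kallikrein, a scarcer one and an abundant serpin. They were taken from RefSeq (GRCh38.p14), which gave an entry for 8 of the 9 genes, and each is printed 5′ to 3′ on the strand of its gene, from base -250 to the last base before any annotated exon. Capitals mark matches to the 6 motifs searched, TGANTCA (AP-1), CAGGTG (E-box), TGNGGT (RUNX core), AGAACA (glucocorticoid receptor half-site), GGGCGG (GC box) and, as a TATA box, TATAAA, on either strand.
KLK5, chr19:50953094-50953288, minus strand: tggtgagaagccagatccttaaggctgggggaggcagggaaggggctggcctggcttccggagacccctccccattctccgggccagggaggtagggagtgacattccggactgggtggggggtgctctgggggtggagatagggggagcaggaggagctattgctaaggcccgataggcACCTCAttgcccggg
KLK6, chr19:50969674-50969841, minus strand: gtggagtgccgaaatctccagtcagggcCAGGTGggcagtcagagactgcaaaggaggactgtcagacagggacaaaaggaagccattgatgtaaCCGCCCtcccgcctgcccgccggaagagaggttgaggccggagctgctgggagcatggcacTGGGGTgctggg
SERPINB5, chr18:63476708-63476957, plus strand: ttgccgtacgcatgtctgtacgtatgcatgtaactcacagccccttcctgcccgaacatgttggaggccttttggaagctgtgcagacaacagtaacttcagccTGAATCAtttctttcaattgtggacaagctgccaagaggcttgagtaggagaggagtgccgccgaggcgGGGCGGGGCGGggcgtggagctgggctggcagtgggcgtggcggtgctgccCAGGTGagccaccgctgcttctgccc
In the 250 bases before the start, KLK5 held 1 match, to TGNGGT from -70 to -65, printed as ACCTCA. KLK6 held an E-box from -222 to -217, a match to TGNGGT from -94 to -89 and 3 GC boxes. Of these boxes, the one nearest the 5′ end lies within the printed stretch. SERPINB5 held an AP-1 match from -146 to -140, an E-box from -26 to -21 and 2 adjacent GC boxes, which overlap by 1 base. Among 35116 promoters of the same length, 37.7% held the loose form TGNGGT, 17.5% the E-box, 6.57% the AP-1 motif and 42.6% the GC box. A match to letters so common is a description of these windows and marks no binding site.

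The libraries held between 7472418 and 28672630 reads on genes, recovered from the deposited normalized counts. A count of 3 reads, taken as the floor, stood for 1.76 to 6.71 normalized counts in these libraries, a limit from counting error alone. Levels below are normalized counts, in which the reads of a gene are divided by the DESeq2 size factor of the sample and not by gene length. The labels call the cells luminal ductal, while the study's text calls MCF10A normal-like and basal. Markers of both mammary layers were present, though unevenly. Control means were 6549 for KRT8 and 3968 for KRT18 (luminal) and 21417 for KRT5 and 10576 for KRT17 (basal). Lower means were 149.9 for KRT19, 150.2 for ESR1 and 508.9 for GATA3 (luminal) and 111.9 for KRT14 (basal). Of 11 mesenchymal and fibroblast markers, 10 were tested and 9 rose by the test described next, with a summed level of 3953 to 11453 in the controls and 129057 to 194647 in the depleted samples. Of 5 leukocyte markers only PTPRC and CD14 are analysed here. PTPRC had 1.25, 0 and 1.97 normalized counts in the controls, under the floor. In the depleted samples it had 10.1, 13.8 and 11.2, from 11, 21 and 5 reads, above every control. Its mean was too low for the test. CD14 had 882.3, 431.2 and 270.5 normalized counts in the controls and 646.2, 72.8 and 89.4 in the depleted samples, and it did not pass (limma adjusted p = 0.355). In bulk RNA, fewer cells of a type and less RNA per cell cannot be told apart.

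Without growth factors every one of the 7 genes had a lower mean log2 level, as had 8809 of the 16988 genes tested. KLK8 was the single member that fell by the test used. The test used limma after adding 1 to each normalized count and taking log2, on the 16988 genes whose mean reached 10. Calls required a 2-fold change and an adjusted p under 0.05 (Benjamini-Hochberg, over all genes tested). In total 6.33% of genes were called, with 1.97% of all genes lower and 4.36% higher without growth factors. With so few genes in the group, 1 call in 7 is not a result about the group as a whole. The median log2 fold change was -2.47 over the 5 kallikreins and -0.44 over the 2 serpins, against -0.03 over all genes tested.

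**Figure D1:**
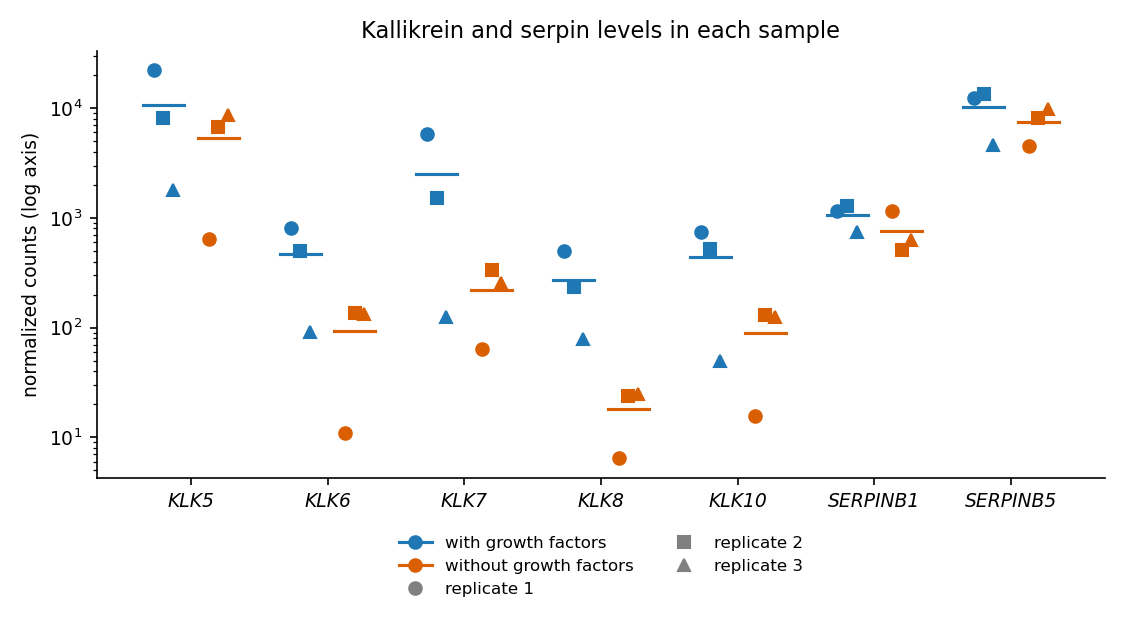
Normalized counts (log axis) of the 5 kallikreins and 2 serpins in each sample, blue with and orange without growth factors, with marker shapes for replicates 1 to 3 and a line at each group mean. KLK8 was below 25 in every depleted sample and above 78 in every control sample, while the groups of the other 6 genes overlapped.

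KLK8, also called neuropsin, is a trypsin-like kallikrein of skin and brain (chromosome 19 of hg38, 50996007 to 51002711). Its normalized counts were 500.0, 233.8 and 78.7 in control replicates 1 to 3 and 6.41, 23.6 and 24.6 in depleted replicates 1 to 3. Every depleted sample lay below every control sample, which held for 12.1% of all genes tested. The log2 fold change was -3.66 (standard error 0.78, 95% interval -5.43 to -1.88, limma adjusted p = 0.0287), a 12.6-fold lower level. The depleted samples rested on only 7, 36 and 11 reads. Both count models run on the recovered reads also called KLK8, with an adjusted p of 0.0297 by edgeR, which called 5.72% of all genes and 1.7% as lower, and 4.12e-06 by DESeq2, which called 12.5% and 4.87% as lower. Over the 6 fits that leave out a sample, its log2 fold change lay between -4.36 and -3.03 and it passed in 1, that without control replicate 3 (limma adjusted p = 0.00975).

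KLK7, a chymotrypsin-like kallikrein that KLK5 can activate, lies at 50976468 to 50984099 of the same chromosome. It had 5826, 1506 and 125.9 normalized counts in the controls and 63.2, 338.3 and 252.7 in the depleted samples. Control replicate 3 lay below depleted replicates 2 and 3, so the groups overlapped. The log2 fold change was -2.55 (95% interval -5.41 to 0.30, limma adjusted p = 0.309). Without control replicate 3 it was -4.07 and passed (limma adjusted p = 0.0217), in a fit that called 14.6% of all genes, with 6.49% of all genes lower. DESeq2 called KLK7 (log2 fold change -3.48, adjusted p = 0.00328), and edgeR did not (adjusted p = 0.138).

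KLK6, a trypsin-like kallikrein also known from the nervous system, lies at 50958631 to 50969673. It had 813.4, 494.5 and 91.5 normalized counts in the controls and 11.0, 135.1 and 134.2 in the depleted samples. KLK10, first described as a gene of normal mammary epithelium (NES1), lies at 51012739 to 51020175. Its levels were 738.2, 522.0 and 49.2 normalized counts in the controls and 15.6, 129.2 and 125.2 in the depleted samples. Both genes had the same layout, with control replicates 1 and 2 highest, control replicate 3 under depleted replicates 2 and 3, and depleted replicate 1 lowest. Their log2 fold changes were -2.47 for KLK6 (95% interval -4.95 to 0.01, limma adjusted p = 0.252) and -2.05 for KLK10 (95% interval -4.63 to 0.53, limma adjusted p = 0.369). Neither passed, and the intervals reach from a fall of several log2 units to 0 or above.

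KLK5, a trypsin-like kallikrein that starts the activation of the others, lies at 50943303 to 50953093. It had 22185, 8120 and 1805 normalized counts in the controls and 641.6, 6726 and 8651 in the depleted samples. Depleted replicates 2 and 3 stood beside control replicate 2, and the range of the controls enclosed both. The log2 fold change was -1.04 (95% interval -3.61 to 1.53, limma adjusted p = 0.684). Without depleted replicate 1 its sign turned, to 0.15.

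**Figure D2:**
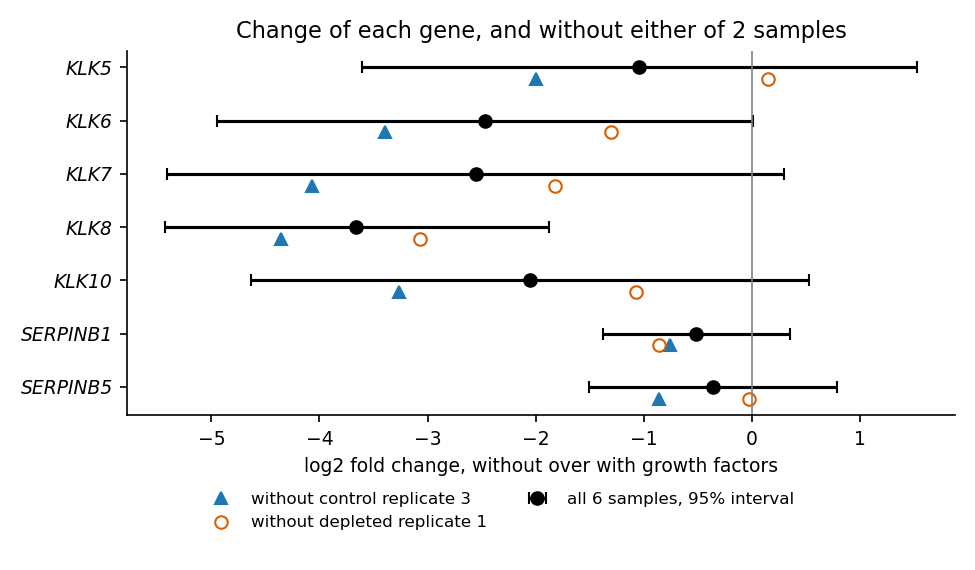
Log2 fold change of each gene, without over with growth factors, as black points with 95% intervals from limma on all 6 samples, beside the value without control replicate 3 (blue triangles) and without depleted replicate 1 (open orange circles). The interval of KLK8 (-5.43 to -1.88) lies below 0, and leaving out depleted replicate 1 moves the values of the 5 kallikreins up, that of KLK5 to 0.15.

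The 5 kallikreins shared a second pattern, within rather than between the conditions. In each of the 5, control replicate 1 was highest and control replicate 3 lowest of the controls, an order found in 18.1% of all genes tested. The ratio of control replicate 1 to replicate 3 was 46.3 for KLK7, 15.0 for KLK10, 12.3 for KLK5, 8.89 for KLK6 and 6.35 for KLK8. A ratio of at least 5 occurred in 2.28% of all genes tested. In the depleted samples, replicate 1 was at least 3-fold below both others for the 5 kallikreins, which held for 5.03% of all genes. The lower of depleted replicates 2 and 3 was 10.5 times replicate 1 for KLK5, 12.2 times for KLK6, 8.05 times for KLK10, 4.0 times for KLK7 and 3.68 times for KLK8. For comparison, depleted replicate 1 was the lowest of its group in 35.5% of all genes. A low depleted replicate 1 was not particular to the kallikreins. The highest depleted sample was 26.7 times replicate 1 for KRT5, 21.7 times for CDH1 (E-cadherin) and 12.7 times for ST14. Other epithelial genes went the other way, such as KRT14, which was highest in depleted replicate 1. These orders were chosen after the values were seen and carry no test.

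DESeq2 size factors make the median level of genes alike between samples, so the medians over all genes given here were largely fixed beforehand. They place the kallikreins beside other genes and are no check of the libraries. On the log2 scale, control replicate 3 minus the mean of control replicates 1 and 2 had a median of -2.89 over the 5 kallikreins. That median was -0.02 over all genes tested and -0.30 over the 4099 genes whose merged exons span 1653 to 3798 bases, as those of the kallikreins do. Depleted replicate 1 differed from the mean of the others by a median of -2.95 over the kallikreins and 0.04 over all genes. Summed markers of stratified epithelial differentiation (5 of 8 analysed here, mostly KRT10 and TGM1) were 3648 and 5204 in control replicates 1 and 2, 702.4 in control replicate 3, and 670.0, 461.6 and 728.9 in depleted replicates 1 to 3, so that control replicate 3 but not depleted replicate 1 was low in its group. Of the 4 tested, FLG rose, from only 1, 0 and 0 control reads, and none fell by the test. TGM1, KRT10 and IVL changed by -1.81, -2.32 and 0.02 on the log2 scale and did not pass. Of 7 luminal markers KRT19 fell, and of 6 basal markers TP63 fell. Markers of both mammary layers were split in depleted replicate 1. It was the lowest depleted sample for 3 and the highest for 3 of the 7 luminal markers. Of the 6 basal markers, it was the lowest for 3 and the highest for 3. These counts hide unequal sizes. KRT5 had 562.0 normalized counts in depleted replicate 1 against 10908 and 14997 in replicates 2 and 3, and EPCAM 152.9 against 2281 and 2486. The other way, KRT14 had 980.3 against 193.4 and 306.3, and MUC1 1032 against 322.6 and 87.2. Summed luminal markers were 18326, 20741 and 31554 in depleted replicates 1 to 3 and summed basal markers 40940, 83490 and 148153. Of the 11 mesenchymal markers, depleted replicate 1 was highest for 7 and lowest for 3. Its sum was the lowest, at 129057 against 194647 and 149271, an order set by the abundant FN1. FN1 had 48562, 159901 and 117025 normalized counts in depleted replicates 1 to 3. VIM went the other way, with 44834, 16542 and 19283. The part of these markers in the kallikrein values was not tested.

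KLK5 had the smallest mean difference of the 5 kallikreins on the log2 scale, though not in normalized counts. Its ratio to the other kallikreins, which needs no scaling between samples, was compared within each sample. The log2 ratio of KLK5 to KLK8 was 5.47, 5.12 and 4.52 in the controls and 6.65, 8.15 and 8.46 in the depleted samples, a difference of 2.72. For KLK5 to KLK6 it was 4.37 ± 0.37 with and 5.84 ± 0.19 without growth factors, and for KLK5 to KLK10 it was 4.69 ± 0.65 and 5.73 ± 0.37 (mean ± SD of 3 samples). For these 3 ratios the conditions did not overlap, and each exact two-sided permutation p was 0.1, the smallest that 3 samples against 3 can give. Adjusted over the 7 ratios compared, which were chosen after the values were seen, p was 0.233 for each by the exact permutation test, so none passed. The log2 ratio of KLK5 to KLK7 overlapped between conditions, at 1.93 to 3.84 in the controls and 3.34 to 5.10 in the depleted samples. KLK6 and KLK10 had similar normalized counts, with a log2 ratio of 0.32 ± 0.51 in the controls and -0.11 ± 0.34 in the depleted samples (exact permutation p = 0.4, n = 3 in each condition).

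**Figure D3:**
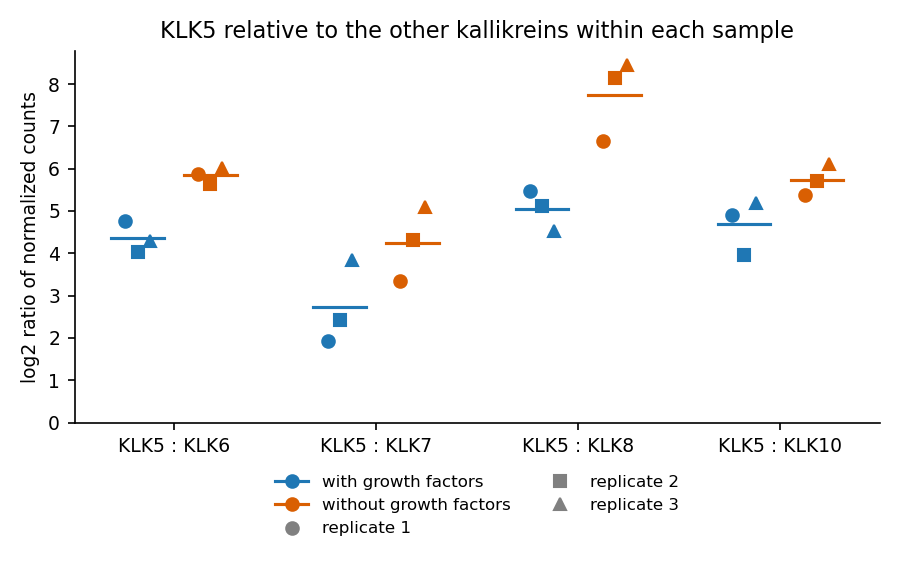
Log2 ratio of the normalized counts of KLK5 to those of each other kallikrein within each sample, blue with and orange without growth factors, with marker shapes for replicates and lines at the group means. The ratios to KLK6, KLK8 and KLK10 do not overlap between the conditions, and the ratio to KLK7 does.

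Levels of different genes were compared as normalized counts per kb of merged exons. In the controls the order was KLK5 (6475 ± 6311), SERPINB5 (2718 ± 1297), KLK7 (1016 ± 1215), SERPINB1 (347.8 ± 92.4), KLK6 (236.0 ± 183.1), KLK8 (145.2 ± 114.3) and KLK10 (114.9 ± 92.8; mean ± SD, n = 3). Neighbours in that order differed by less than the larger SD, except SERPINB5 and KLK7. In the depleted samples the order per kb was KLK5 (3230 ± 2529), SERPINB5 (2006 ± 732), SERPINB1 (251.1 ± 111.1), KLK7 (89.1 ± 57.5), KLK6 (47.3 ± 36.1), KLK10 (23.7 ± 17.0) and KLK8 (9.76 ± 5.48). SERPINB5 stood above SERPINB1, and SERPINB1 above KLK7, by more than the larger SD, and the other neighbours did not. KLK5 made up 80.5% to 87.7% of the summed kallikrein level per kb in the controls and 90.9% to 96.0% in the depleted samples. KLK8 held 1.61% to 3.39% of that sum in the controls and 0.242% to 0.804% in the depleted samples. Each of these 2 shares gave an exact permutation p of 0.1, the smallest possible here. They largely restate the KLK5 ratios above, none of which passed, and are no separate result. The summed level itself was 16675, 6041 and 1245 per kb in the controls and 427.0, 4322 and 5451 in the depleted samples, a difference of -1.21 on the log2 scale (exact two-sided permutation p = 0.5).

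The serpins of the group had a narrower spread within each condition than the kallikreins. SERPINB5 (chromosome 18, 63476958 to 63505085) had 12348, 13550 and 4610 normalized counts in the controls and 4500, 8166 and 9856 in the depleted samples. Control replicate 3 was again the lowest control and depleted replicate 1 the lowest depleted sample, with the highest control 2.94 times the lowest and the other depleted samples at least 1.81 times replicate 1. Its log2 fold change was -0.36 (95% interval -1.51 to 0.79, limma adjusted p = 0.757). SERPINB1 (chromosome 6, 2832332 to 2841959) had 1161, 1277 and 741.7 normalized counts in the controls and 1151, 514.7 and 630.5 in the depleted samples. Here depleted replicate 1 was the highest depleted sample, the opposite of its place in the other 6 genes. The log2 fold change of SERPINB1 was -0.52 (95% interval -1.38 to 0.35, limma adjusted p = 0.517).

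Other clade B serpins were read from a list of 10 genes, of which 5 are analysed here. SERPINB2, which inhibits plasminogen activators, and SERPINB3, which inhibits cysteine proteases, fell, and SERPINB6, SERPINB7 and SERPINB8 did not pass. Of all genes tested 1.97% fell, and 2 calls among 5 genes are not a result about the family. SERPINB2 had 90.2, 56.8 and 19.7 normalized counts in the controls and 1.83, 3.93 and 2.24 in the depleted samples, from 2, 6 and 1 reads (limma adjusted p = 0.0195). SERPINB3 had 7.52, 238.4 and 58.0 normalized counts in the controls and 0, 1.31 and 0 in the depleted samples, from 0, 2 and 0 reads (limma adjusted p = 0.0353), and its value is uncertain, since reads could be shared with its near-identical neighbour SERPINB4 and that sharing was not measured. Depleted levels of both lay at or near the floor, so no fold is given. Each passed in 2 of the 6 fits that leave out a sample. SERPINB6, SERPINB7 and SERPINB8 changed by -0.21, 0.69 and 0.31 on the log2 scale, and their limma adjusted p values were 0.818, 0.600 and 0.654. Both genes that fell lie in the chromosome 18 cluster that also holds SERPINB5, SERPINB7 and SERPINB8.

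The 9 other kallikreins of the cluster are not analysed here. Within 250 kb on either side of it, CLEC11A, C19orf48P and CTU1 were the 3 genes tested, all named after their values were seen, with log2 fold changes of 0.99, -0.51 and 0.66, and none was called. Around the serpins, 8 genes were tested within 250 kb outside the chromosome 6 cluster and 3 outside the chromosome 18 cluster. None of these neighbours was called.

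Partners of the kallikreins and serpins were taken from 4 lists with 36 genes in all, of which 27 are analysed here and 25 were tested. By limma 7 fell and 1 rose, with a median log2 fold change of -1.25 against -0.03 over all genes, of which 1.97% fell and 4.36% rose. DESeq2 called 12 partners, against 12.5% of all genes. Among protease inhibitors, 4 of 10 tested were lower and 1 higher. SPINK6, a Kazal-type inhibitor of kallikreins, had 180.5, 196.3 and 71.8 normalized counts in the controls and 0, 4.59 and 2.24 in the depleted samples, from 0, 7 and 1 reads (limma adjusted p = 0.00474). CSTA, the cysteine protease inhibitor cystatin A, fell to 22.4 ± 6.33 normalized counts from 991.5 ± 623.4 in the controls (SDs over 3 samples). Its log2 fold change was -5.22 (limma adjusted p = 0.00157). PI3, the elastase inhibitor elafin, fell from 22.6, 90.8 and 18.7 normalized counts to 0.915, 1.31 and 2.24, which are 1, 2 and 1 reads (limma adjusted p = 0.0232). A2ML1 fell and A2M rose, both being broad inhibitors that trap many proteases, with limma adjusted p values of 0.00645 and 0.00561. A2ML1 had 3730 ± 818 normalized counts with and 122.7 ± 93.5 without growth factors. A2M rested on 1, 3 and 3 control reads, against 9884, 384 and 174 reads in depleted replicates 1 to 3. SLPI, an inhibitor of elastase and of other serine proteases, was lower in every depleted sample, at 832.7 to 999.5 against 1272 to 5861 normalized counts, and did not pass (limma adjusted p = 0.086). SPINK5, an epidermal inhibitor of kallikreins named here for that role, had means of 9.77 and 9.75 normalized counts and was below the minimum mean for the test.

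**Figure D4:**
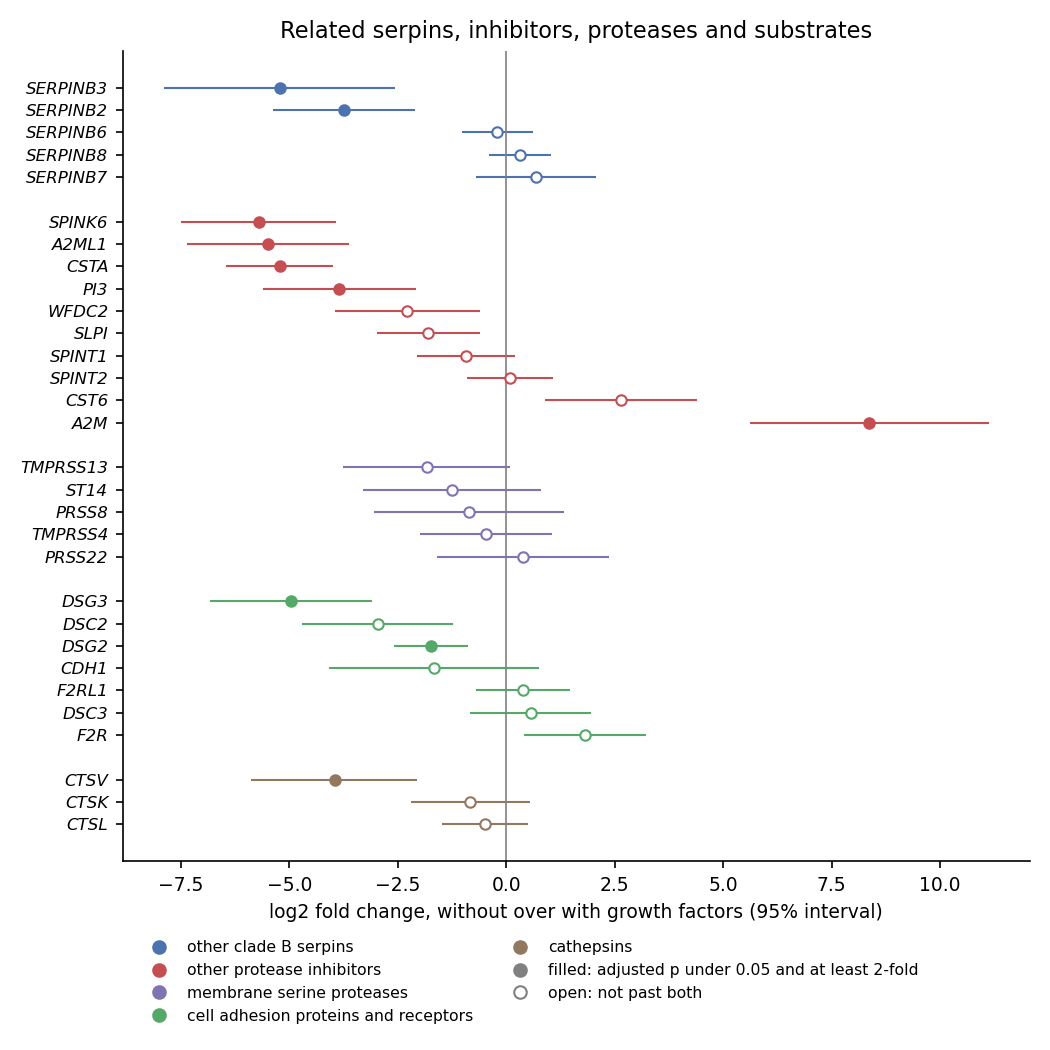
Log2 fold change, without over with growth factors, with 95% limma intervals, of the 5 other clade B serpins and the 25 partner genes tested, coloured by list, filled where the adjusted p was under 0.05 with at least a 2-fold change. Filled points lie left of 0 for 9 genes and right of 0 for A2M alone, and points of genes with few reads depend on the added count of 1.

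Of 5 membrane serine proteases tested, none was called. For ST14, or matriptase, the log2 fold change was -1.25 (limma adjusted p = 0.513), and for PRSS8, or prostasin, -0.86 (limma adjusted p = 0.697). ST14 had 331.3 normalized counts in depleted replicate 1 against 3841 and 4195 in depleted replicates 2 and 3, and PRSS8 had 95.2 against 1493 and 1413. Among adhesion proteins and receptors, DSG3 fell to 979.3 ± 789.3 normalized counts from 23610 ± 14785 in the controls, which is -4.97 on the log2 scale (limma adjusted p = 0.00965). DSG2 fell as well, by 1.74 on the log2 scale (limma adjusted p = 0.0307), and both encode desmosomal cadherins. DSC2, DSC3, CDH1, F2RL1 and F2R did not pass, the last 2 being protease-activated receptors, with log2 fold changes of 0.38 and 1.81. CDH1, the gene of E-cadherin, had 20039, 13132 and 12961 normalized counts in the controls. It had 609.6 in depleted replicate 1 against 13234 and 13118 in depleted replicates 2 and 3. DSC2 was likewise lowest in depleted replicate 1, and F2RL1 and F2R were highest there. Among cathepsins, CTSV, a cysteine protease close to cathepsin L, fell to 104.8 ± 57.7 normalized counts from 2133 ± 1769 in the controls, or by 3.96 on the log2 scale (limma adjusted p = 0.0281). CTSL and CTSK, the proteases that SERPINB13 is known to inhibit, had log2 fold changes of -0.49 and -0.83 and did not pass. Of the partners called, SPINK6, A2M, A2ML1, CSTA and DSG3 passed in all 6 fits with a sample left out, and PI3, DSG2 and CTSV passed in 1 of the 6.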

How the data were processed

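RNA-Seq was available for 3 control and 3 growth factor-depleted samples of MCF10A, grouped by their labels. The deposited table gives each gene a signal, its normalized count. From the study's methods and processing notes, the authors' tools were cutadapt 1.6, TopHat2 (alignment to hg38), HTSeq 0.6 (counting, Gencode v22) and DESeq2 1.8.1, whose size factors divide the counts. Of all values, 100% were whole multiples of what 1 read is worth (within 0.01 read), so that reads could be recovered. Their filter on low counts is not given in the sources used here. Names, spans and merged exon lengths came from Gencode v44 on hg38 (18913 of 19198 identifiers matched).

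The test was lmFit and eBayes with trend (limma 3.58.1, R 4.3.3), without a replicate block. Alternatives were pseudocounts of 0.5 and 10, no filter, a minimum mean of 50, rescaling to equal totals, quantile normalization, no trend, a replicate block, edgeR 4.0.16 (quasi-likelihood) and DESeq2 1.42.0 on recovered reads, adjusted p thresholds of 0.01 and 0.1, and each sample left out. Procedures were tested on simulated data. Ratios and sums were compared by exact two-sided permutation tests over samples. The members and lists were chosen with earlier results of these data known. Named were all members, list genes that were called or among the best expressed, genes tested beside the kallikrein cluster, and the 5 genes most like the members. Python 3.11.15, pandas 2.3.3 and matplotlib 3.10.9 made the other tables and plots.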

Additional observations from a re-analysis of the deposited data

How the results depend on the processing

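Across 16 other settings, 111 of 112 log2 fold changes of the 7 genes kept their sign, the exception being KLK5. Most of these settings refit the same 6 samples and could hardly turn a sign. Over the 6 fits that leave out a sample, KLK5 lay between -2.0 and 0.15, the latter without depleted replicate 1. SERPINB5 came to -0.03 in that same fit. The count of 1 member called was 2 by DESeq2 and 0 at an adjusted p under 0.01, with 0 to 2 over the 6 such fits. With a sample left out, KLK8 lost its call in 5 of 6 fits (limma adjusted p from 0.0652 to 0.108), and KLK7 passed without control replicate 3. The 2 other clade B serpins called became 0 with a minimum mean of 50, 1 with a pseudocount of 10 and 0 at an adjusted p under 0.01, and 0 to 2 with a sample left out. The 8 partners called became 5 at an adjusted p under 0.01, and 5 to 9 with a sample left out. They were 12 by DESeq2 (7 shared, A2M having no adjusted p), 11 at an adjusted p under 0.1 and 6 without the trend. Over all genes, 1076 were called, 2112 by DESeq2 and 453 (without depleted replicate 2) to 2474 (without control replicate 3) with a sample left out. The cause was not tested. Other kallikreins gave no value. With the replicate block, limma called 1 member (KLK8, adjusted p = 0.0253), 2 other serpins and 8 partners, 7 of them as without the block, which lost DSG2 (adjusted p = 0.0813) and added DSC2 (adjusted p = 0.0376). Whether the replicate numbers pair samples could not be settled. Deviations of same-numbered samples from their group means correlated at -0.07, -0.28 and -0.32. Deviations within a group depend on each other, so these values cannot decide it. Depth limits KLK8, SERPINB2, SERPINB3, SPINK6 and PI3, whose depleted samples held few reads. It also limits A2M and FLG, whose control samples held few reads.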

Other observations

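The genes whose pattern over the 6 samples was most like the mean standardised log2 level of the 7 genes were MAL2, SMIM30, PON2, FAIM and PTPN11, by Pearson's r, among 11590 candidates outside the lists whose mean was 100 normalized counts or more. Their r lay between 0.992 and 0.999 over 6 samples, and 359 candidates reached 0.9. The samples share the libraries and their depth, and the r values are a description. MAL2, a membrane protein of apical transport, had 9818, 6727 and 1881 normalized counts in the controls and 1188, 2529 and 2905 in the depleted samples. PTPN11, the phosphatase SHP2, had 6685, 6307 and 3835 in the controls and 2872, 4049 and 4065 in the depleted samples. Both repeat the layout of the kallikreins, with control replicate 3 next to the depleted samples, and neither was called (limma adjusted p = 0.303 for MAL2 and 0.381 for PTPN11).

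CST6, the secreted cysteine protease inhibitor cystatin M/E, was chosen after its values were seen. Its normalized counts were 878.5, 382.6 and 123.0 in control replicates 1 to 3, in the same order as the kallikreins. In the depleted samples it had 875.9, 2925 and 3964, on average above the controls, and it did not pass (log2 fold change 2.64, limma adjusted p = 0.0849).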
